A study of Mus musculus with 48 samples.

Results

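The glycolysis genes described here are 10 genes that carry glucose into the cell and convert it to lactate: Slc2a1, Hk1, Hk2, Pfkl, Aldoa, Tpi1, Pgk1, Eno1, Pkm and Ldha. They were chosen by gene symbol and not by a measured value, though with earlier results of these data known. They make up 10 of the 55487 genes in the table of counts. All 10 passed the filter on low counts in RNA, in ribosome footprints and in the ratio of both. In the RefSeq annotation of assembly GRCm38.p6 the whole genes lie on 5 autosomes and the X: Slc2a1 at chr4:119108745-119137330, Hk1 at chr10:62268855-62379920, Hk2 at chr6:82725025-82774454, Pfkl at chr10:77986947-78009807, Aldoa at chr7:126795234-126800994, Tpi1 at chr6:124810586-124814158, Pgk1 at chrX:106187100-106203699, Eno1 at chr4:150236708-150248879, Pkm at chr9:59656576-59679372 and Ldha at chr7:46842274-46855627.

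Ba/F3 cells, a murine line described as pro-B that grows only when interleukin 3 is supplied, were cultured with 10% serum and the cytokine at 1 ng/mL. CRISPR-Cas9 clones of 8 genotypes were compared: WT, Rpl5+/-, Rpl11+/-, Rpl22+/-, Rpl22-/-, Rpl10 R98S/R98S (written Rpl10 R98S here), Rps15 P131S/P131S (P131S) and Rps15 H137Y/H137Y (H137Y). The RNA library titles name P131S once, while the genotype label of both assays places it on both alleles. Each genotype had 3 clones, and the lysate of each clone, harvested after 1 min in 0.1 mg/ml cycloheximide, was divided between RNA-seq and ribosome profiling of 28 to 30 nt footprints, which gave 48 libraries. Every mutant was set against the same 3 WT clones, so the 7 comparisons with WT are not independent of each other. No label describes the WT clones as separate edits. P-values measure the spread between the clones of all genotypes in a fit, not only of those compared.

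Total counts ran from 13029073 to 38258559 per RNA library and from 15598994 to 72044439 per footprint library. Levels are in CPM, the count relative to a library size scaled with TMM factors (trimmed mean of M values), to a total of 1e+06, given as mean ± SD of 3 clones, and they are not comparable between genes because they are not divided by length. Changes are log2 fold changes with standard errors (SE) from edgeR's quasi-likelihood test, with p-values adjusted by Benjamini-Hochberg over all genes of a comparison and a threshold of 0.05. Translational efficiency is the footprint level relative to the RNA level of the same gene, tested as the interaction of assay and genotype. An exact permutation test of 3 clones against 3 cannot go below 0.1, so the adjusted p-values rest on spread shared across genes and genotypes. That spread was unequal for some genes. The SD of Aldoa RNA was 499 CPM in P131S, 345 CPM in H137Y, 76.4 CPM in WT and 32.8 CPM in Rpl5+/-. With only the compared groups fitted, RNA calls over all genes went from 3234 to 378 between P131S and H137Y. In Rpl10 R98S against WT they went from 1647 to 4216.

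Several markers that define pro-B cells were at or near 0 in all 24 RNA libraries. Kit was at 0, Pax5 at most 0.119 CPM, Ebf1 at most 0.0334 CPM, Igll1 at most 0.0756 CPM and Vpreb1 at most 0.301 CPM, while Ptprc (167 to 302 CPM), the interleukin 3 receptor gene Il3ra (25.6 to 35.1 CPM) and Csf2rb (449.5 to 1720 CPM) were present. Of 12 markers listed, 5 passed the filter. Markers of myeloid cells moved with the Rps15 genotypes. The summed RNA level of 10 such markers was 207 to 287 CPM in WT and 147 to 488 CPM in the 5 other mutants, but 585 to 2554 CPM in P131S and 542 to 2642 CPM in H137Y. S100a8 and S100a9 carried most of that rise. S100a8 had 539 ± 403 CPM in P131S against 17.7 ± 17.99 CPM in WT, and without both genes the sum of the other 8 was 182 to 197 CPM in WT, 132 to 198 CPM in P131S and 114 to 306 CPM in H137Y. Of 9 myeloid markers tested, 5 were higher, 1 (Adgre1) lower and 3 not called in P131S, and 7 were higher, 1 (Adgre1) lower and 1 not called in H137Y. Of 5 erythroid markers tested, 3 were lower in P131S, 3 were higher in H137Y and 4 were lower in P131S than in H137Y. Their summed RNA level was 100 to 122 CPM in WT, 64.3 to 102 CPM in P131S and 144 to 382 CPM in H137Y. It was 112 to 166 CPM in Rpl5+/-, 127 to 151 CPM in Rpl11+/- and 100 to 116 CPM in Rpl22+/-. In Rpl22-/- it was 68.9 to 112 CPM and in Rpl10 R98S 77.8 to 124 CPM. Each of these other mutants overlapped P131S or H137Y. Of 3 mast cell markers tested, 2 were higher and 1 lower in P131S, and 1 was higher and 1 lower in H137Y. Of 2 T cell markers tested, 1 (Cd3g) was higher in P131S and none was called in H137Y. The other, Lck, had a log2 change of -2.44 in P131S that was not called. The summed T cell markers were 13.7 CPM in P131S clone 20, but 0.835 CPM in clone 24 and 0.238 CPM in clone 63. In WT they were 0.754 to 1.67 CPM, so the higher sum in P131S was that of 1 library. Of all genes tested in RNA, 47% were called in P131S, 41% in H137Y and 25.2% between them. The part of these markers in the Rps15 results was not tested. In bulk libraries, fewer cells expressing a gene and less RNA per cell cannot be told apart.

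Glycolysis splits glucose into pyruvate in the cytosol, and lactate dehydrogenase then regenerates the cofactor that lets the pathway continue. Growing blood cell lines take up glucose under the control of their growth factor, through transporters at the surface and hexokinases that trap the sugar inside. Many genes of the pathway are known targets of the transcription factors HIF1 and MYC, which both bind DNA elements that hold the letters ACGTG.

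The promoters of the 4 members with the clearest changes or with most such letters are shown here as background to the RNA results. Each is the stretch of 250 bases before a start site of the gene in RefSeq (assembly GRCm38.p6), 5′ to 3′ on the gene's strand, with ACGTG on either strand (read CACGT on the other) in capitals. They lie at chr4:119108495-119108744 (plus strand) for Slc2a1, chr6:82774455-82774704 (minus) for Hk2, chrX:106186850-106187099 (plus) for Pgk1 and chr7:46845554-46845803 (plus) for Ldha. The Ldha window lies inside the span given above for the whole gene, before an internal start site. Another RefSeq window of Ldha, at chr7:46846832-46847081, is not shown and held no ACGTG on either strand.
Slc2a1: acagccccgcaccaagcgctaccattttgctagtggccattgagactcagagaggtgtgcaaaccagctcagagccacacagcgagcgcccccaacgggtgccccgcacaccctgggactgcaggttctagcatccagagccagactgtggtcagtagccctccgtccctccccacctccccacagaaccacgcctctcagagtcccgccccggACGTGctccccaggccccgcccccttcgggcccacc
Hk2: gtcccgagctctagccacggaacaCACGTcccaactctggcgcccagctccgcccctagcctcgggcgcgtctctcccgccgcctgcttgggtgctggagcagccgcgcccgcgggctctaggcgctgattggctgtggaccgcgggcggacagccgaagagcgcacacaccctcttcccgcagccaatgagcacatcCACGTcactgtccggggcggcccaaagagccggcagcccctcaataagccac
Pgk1: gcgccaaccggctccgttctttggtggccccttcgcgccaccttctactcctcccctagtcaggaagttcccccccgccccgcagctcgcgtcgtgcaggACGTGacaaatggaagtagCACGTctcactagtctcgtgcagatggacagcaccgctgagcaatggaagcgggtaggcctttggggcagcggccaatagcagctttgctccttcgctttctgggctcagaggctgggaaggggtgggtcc
Ldha: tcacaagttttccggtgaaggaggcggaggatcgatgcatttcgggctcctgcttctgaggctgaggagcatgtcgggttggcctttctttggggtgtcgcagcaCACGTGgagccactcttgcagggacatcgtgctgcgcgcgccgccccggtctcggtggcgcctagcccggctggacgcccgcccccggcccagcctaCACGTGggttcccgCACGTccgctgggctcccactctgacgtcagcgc
The Slc2a1 window held 1 match, those of Hk2 and Pgk1 held 2 each, and that of Ldha held 5. Of those 5, 4 form 2 copies of the palindrome CACGTG, which is counted on both strands, and the remaining one overlaps no other. All 10 members matched a RefSeq entry, and 6 of 10 had at least 1 match in a window of theirs: these 4, Aldoa and Pkm. Windows of Hk1, Pfkl, Tpi1 and Eno1 held none. Over all RefSeq windows of this length, 5444 of 32851 (16.57%) held ACGTG on either strand and 6.021% held CACGTG. Counted per gene, as for the members, 4998 of 27025 genes (18.49%) had ACGTG on either strand in at least 1 window. A match is a description of the letters only.

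Most calls of members fell in the Rps15 genotypes, which also had the most calls over all genes. In RNA, the number of members past the threshold was 0 of 10 in Rpl5+/-, Rpl11+/- and Rpl22+/-, where 1.04%, 11.8% and 3.9% of all 12814 tested genes were called. It was 1 of 10 in Rpl22-/- and in Rpl10 R98S, Hk2 in both, against 5.27% and 12.9% of all genes. It was 4 of 10 in P131S and 2 of 10 in H137Y, in comparisons that called 47% and 41% of all genes, and 1 of 10 between P131S and H137Y, where 25.2% of all genes were called. With 10 members, the shares in P131S and H137Y are not read as different from the background, and the counts were 2 to 6 in P131S and 2 to 5 in H137Y with 1 clone left out. At an unadjusted p under 0.05, the members numbered 0, 0 and 1 in Rpl5+/-, Rpl11+/- and Rpl22+/-, and neither DESeq2 nor limma voom called a member there. A fit of only the compared groups called 3, 1 and 1 members in these 3 comparisons and 6 in Rpl10 R98S, against 2 in P131S, and library totals called 1 in Rpl22+/-. Over all genes, the fit of only the compared groups called 1868 of 11814 in Rpl5+/-, 855 of 12008 in Rpl11+/- and 1248 of 11934 in Rpl22+/-. It called 4216 of 11917 genes in Rpl10 R98S and 5180 of 11917 in P131S, while library totals called 587 of 12814 in Rpl22+/-. The median log2 change of the 10 members in RNA was -0.26 in P131S and -0.09 in H137Y, beside all-gene medians of -0.01 and 0.01.

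Footprints of members were called in the Rps15 genotypes only: 2 of 10 in P131S and 1 of 10 in H137Y, where 16.7% and 11.7% of 16217 genes were called. None was called in Rpl5+/- (0.0123% of all genes), Rpl11+/- (0.074%), Rpl22+/- (0.253%), Rpl22-/- (0.105%), Rpl10 R98S (1.62%) or between P131S and H137Y (4.17%). At an unadjusted p under 0.05 these 6 comparisons had 0, 1, 2, 2, 2 and 1 members. Under DESeq2, Pgk1 in Rpl10 R98S and Ldha between the Rps15 genotypes passed, while limma voom called no member in these 6. For efficiency, 1 of 10 members passed in P131S, against 3.14% of 16568 genes. No member passed in Rpl5+/- or Rpl11+/- (0% of all genes each), Rpl22+/- (0.00604%), Rpl22-/- (0.0121%), Rpl10 R98S (0.217%), H137Y (2.76%) or between the Rps15 genotypes (0.682%). Unadjusted p was under 0.05 for 0, 0, 2, 2, 2, 2 and 1 members there, and neither DESeq2 nor limma voom called any. With the clone as a block, which pairs the RNA and footprints of one lysate, Hk2 passed in Rpl22-/-, in H137Y and between the Rps15 genotypes. Over all genes, Rpl5+/- and Rpl11+/- had 450 and 637 efficiency values at an unadjusted p under 0.05, with 29 and 42 calls by DESeq2 and 0 by limma voom. The plot of RNA levels shows all 24 libraries for each member.

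**Figure D1:**
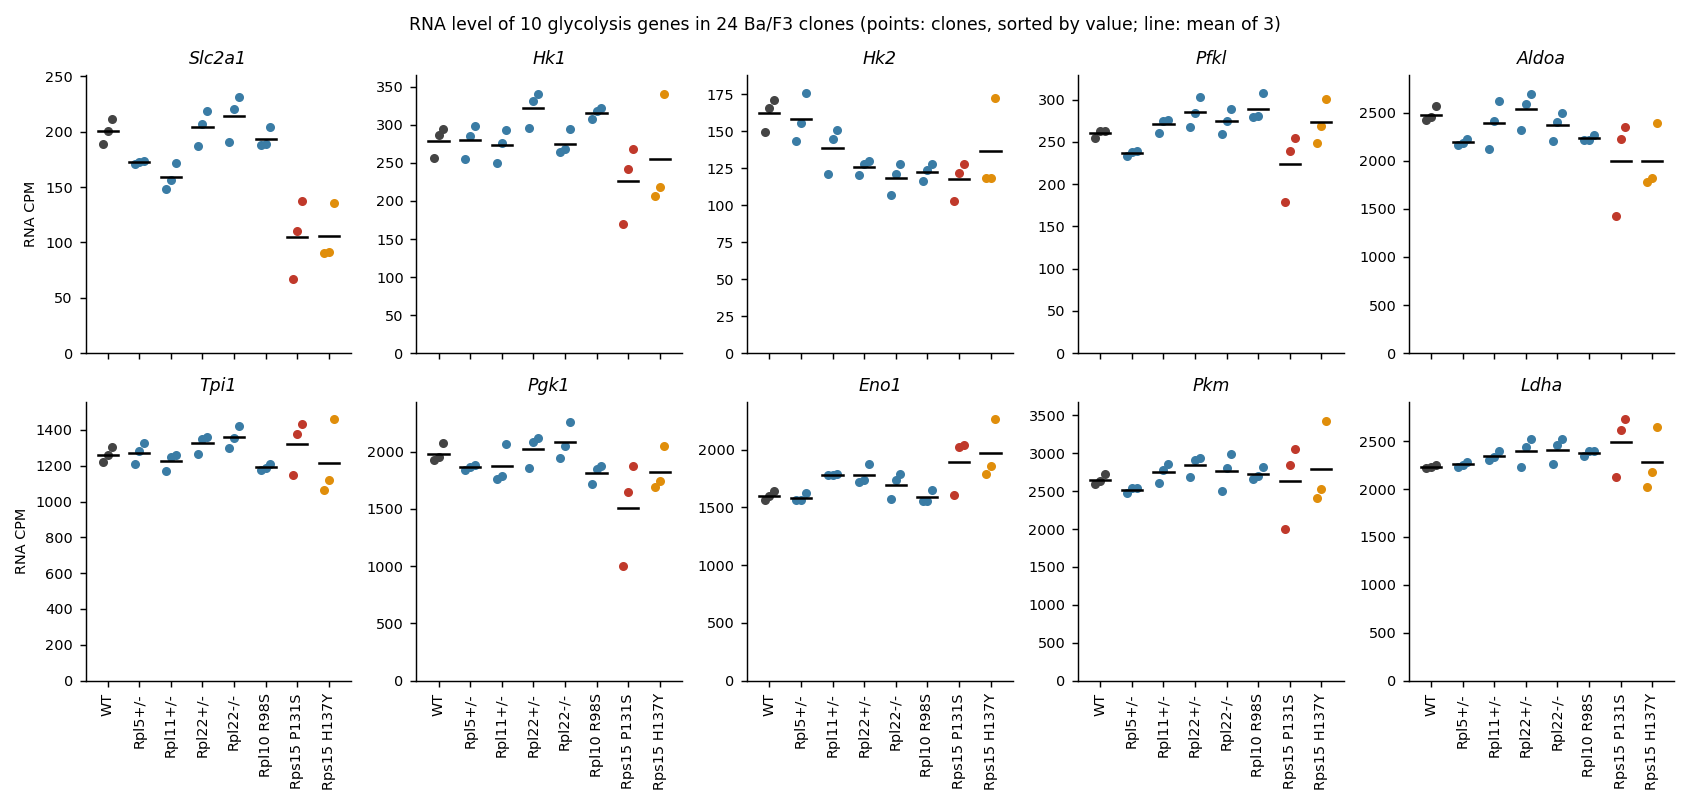
RNA level in CPM (vertical axes, one panel per gene, each with its own scale) for the 8 genotypes, with points for clones and a line for the mean of 3 clones. Slc2a1 sits near 105 CPM in both Rps15 genotypes and near 200.3 CPM in WT, and the 3 clones of P131S and of H137Y lie far apart for most genes.

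In several genotypes 1 clone was the highest or lowest of its group for most members. In RNA, P131S clone 20 had the lowest level of the 3 P131S clones for 10 of 10 members, and H137Y clone 6 the highest of the 3 H137Y clones for 10 of 10. Rpl22+/- clone 13 was also lowest for 10 of 10, and in Rpl22-/- clone 30 was highest for 8 and clone 776 lowest for 8. In footprints, clone 20 was lowest for 9 of 10 and clone 6 highest for 6 of 10. The summed myeloid markers were 585 CPM in clone 20, 1261 CPM in clone 24 and 2554 CPM in clone 63 of P131S. They were 2642 CPM in clone 6, 858 CPM in clone 16 and 542 CPM in clone 2 of H137Y. Several of the changes in RNA and footprints are given with and without clones 20 or 6.

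Slc2a1, which encodes the glucose transporter GLUT1, fell in the RNA of both Rps15 genotypes. The WT clones had 189, 201 and 211 CPM, the P131S clones 138 (clone 24), 110 (clone 63) and 67.1 CPM (clone 20), and the H137Y clones 91.0 (clone 16), 136 (clone 6) and 90.1 CPM (clone 2). Every Rps15 clone lay below every WT clone. The level in P131S was 105 ± 35.6 CPM against 200.3 ± 11.04 CPM in WT, or 52.4% of WT (log2 change -0.93, SE 0.181, edgeR adjusted p 0.000372). In H137Y it was 106 ± 26.2 CPM, or 52.8% of WT (log2 change -0.92, SE 0.181, edgeR adjusted p 0.0005011). Leaving out any 1 of the clones kept both calls, with log2 changes of -1.18 to -0.70 in P131S and -1.15 to -0.82 in H137Y. P131S and H137Y did not differ in Slc2a1 RNA at this precision (log2 difference -0.01, SE 0.180, edgeR adjusted p 0.976).

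Across genotypes the order of Slc2a1 RNA was Rpl22-/- (214 ± 21.2 CPM), Rpl22+/- (204 ± 16.3), WT, Rpl10 R98S (193 ± 9.28), Rpl5+/- (172 ± 1.29), Rpl11+/- (159 ± 11.9), H137Y and P131S. The clones of neighbours in this order overlapped except between Rpl10 R98S and Rpl5+/- and between Rpl11+/- and H137Y. The ratio of the highest to the lowest genotype mean was 2.04 for Slc2a1, and between 1.11 (Ldha) and 1.42 (Hk1) for the other 9 members.

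Footprints on Slc2a1 were also lower in the Rps15 genotypes. The WT clones had 503, 483 and 684 CPM, the P131S clones 495 (clone 24), 409 (clone 63) and 238 CPM (clone 20), and the H137Y clones 352 (clone 16), 397 (clone 6) and 333 CPM (clone 2). H137Y lay below WT in every clone, at 361 ± 33.3 CPM against 556 ± 111 CPM (log2 change -0.63, SE 0.198, edgeR adjusted p 0.044). That call was lost in 6 of 6 fits that left out 1 clone (adjusted p 0.05238 to 0.2146). In P131S clone 24 overlapped WT and the change of -0.55 missed the threshold (edgeR adjusted p 0.0639), while DESeq2 gave 0.03753, limma voom 0.03726 and the fit without clone 24 gave 0.01324. Without clone 20 the change was -0.30 (edgeR adjusted p 0.2968). The efficiency of Slc2a1 had log2 changes of 0.37 in P131S and 0.28 in H137Y that were not called (edgeR adjusted p 0.6286 and 0.7969).

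**Figure D2:**
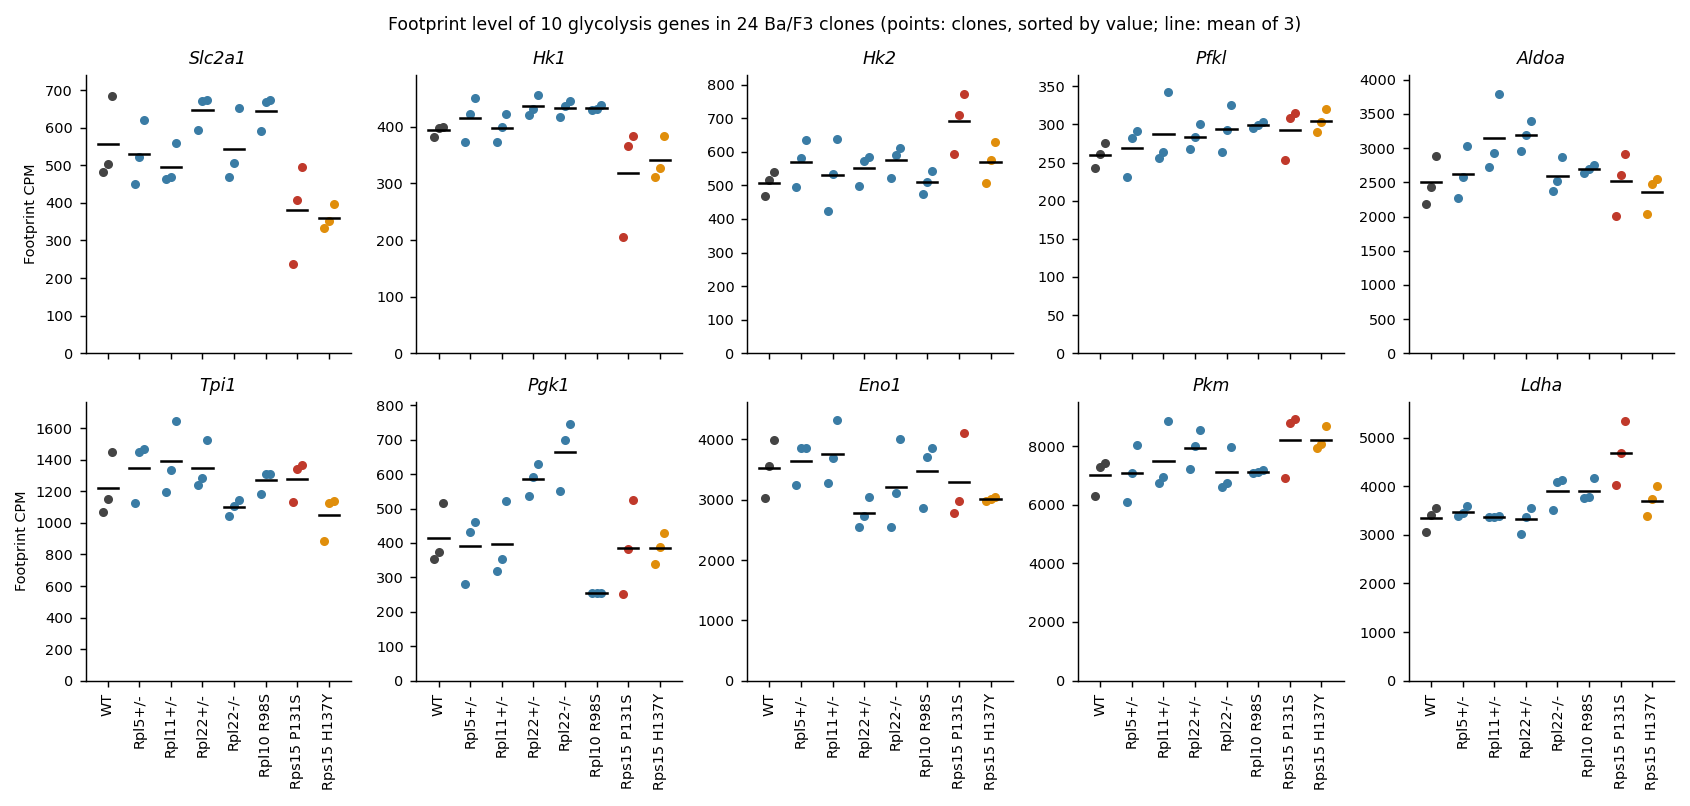
Ribosome footprint level in CPM (vertical axes, one panel per gene, each with its own scale) for the 8 genotypes, with points for clones and a line for the mean of 3 clones. Hk2 and Ldha are highest in P131S, at 692 and 4689 CPM, and Slc2a1 is lowest in H137Y at 361 CPM.

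Hexokinases phosphorylate glucose on entry, and Hk2 is an isoform that many dividing cells induce. Hk2 RNA was highest in WT and footprints on it were lowest in WT. In RNA the WT clones had 150, 166 and 171 CPM, the P131S clones 122 (clone 24), 128 (clone 63) and 103 CPM (clone 20), the Rpl22-/- clones 121, 128 and 107 CPM and the Rpl10 R98S clones 124, 116 and 128 CPM. None of these 9 mutant clones reached the lowest WT clone. Hk2 RNA fell to 72.6% of WT in P131S (118 ± 13.0 against 162 ± 11.04 CPM; log2 change -0.46, SE 0.123, edgeR adjusted p 0.004109), to 73.0% in Rpl22-/- (119 ± 10.6 CPM; -0.45, SE 0.123, adjusted p 0.0344) and to 75.6% in Rpl10 R98S (123 ± 5.91 CPM; -0.40, SE 0.123, adjusted p 0.03381).

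The P131S call stood in all 6 fits that left out 1 clone, while the Rpl22-/- call was lost in 6 of 6 and the Rpl10 R98S call in 5 of 6. In Rpl22+/- the Hk2 clones had 121, 128 and 130 CPM, also below every WT clone, with a change of -0.36 that was not called (edgeR adjusted p 0.1133). In H137Y clone 6 had 173 CPM and clones 16 and 2 both had 118 CPM. The change of -0.25 was not called (edgeR adjusted p 0.1089) and was -0.46 without clone 6 (adjusted p 0.001474).

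Footprints on Hk2 went the other way in P131S. The WT clones had 539, 470 and 515 CPM and the P131S clones 709 (clone 24), 773 (clone 63) and 592 CPM (clone 20), with no overlap. Footprints rose to 136% of WT (692 ± 91.7 against 508 ± 35.2 CPM; log2 change 0.45, SE 0.137, edgeR adjusted p 0.02898). This call was lost without P131S clone 63, without WT clone 3 and without WT clone 2, with scaling by library totals (0.25, adjusted p 0.233) and when only the compared libraries were fitted (0.43, adjusted p 0.05843).

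Without the counts of gene copies added, Hk2 was the only member whose efficiency passed the test in any comparison. The log2 ratio of footprint to RNA CPM was 1.85, 1.498 and 1.59 in the WT clones and 2.54, 2.59 and 2.52 in P131S clones 24, 63 and 20. The groups were apart, with 2.55 ± 0.0380 against 1.65 ± 0.180 (log2 change 0.89, SE 0.189, edgeR adjusted p 0.004524), and the change was 0.87 to 1.03 with each clone left out (adjusted p 0.007799 to 0.0272). The order of the other genotypes was Rpl22-/- (2.28 ± 0.0160), Rpl22+/- (2.13 ± 0.0698), H137Y (2.08 ± 0.208), Rpl10 R98S (2.05 ± 0.0698), Rpl11+/- (1.92 ± 0.140), Rpl5+/- (1.85 ± 0.164) and WT. P131S did not overlap Rpl22-/-, and Rpl22-/- did not overlap Rpl22+/-, while the further neighbours overlapped.

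In 5 of the 7 mutants no clone's Hk2 ratio overlapped WT. With each clone's RNA and footprint libraries paired as a block, the efficiency of Hk2 also passed in Rpl22-/- (log2 change 0.63, SE 0.113, edgeR adjusted p 0.03827), in H137Y (0.42, adjusted p 0.03622) and between P131S and H137Y (0.47, adjusted p 0.04572). P131S had 0.88 (adjusted p 6.589e-05) in that fit, and Rpl22+/- had 0.47 (adjusted p 0.1095). Without the block the Rpl22-/- change was 0.63 (adjusted p 0.5362), that of H137Y 0.40 (0.317), and P131S against H137Y gave 0.49 (0.267).

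**Figure D3:**
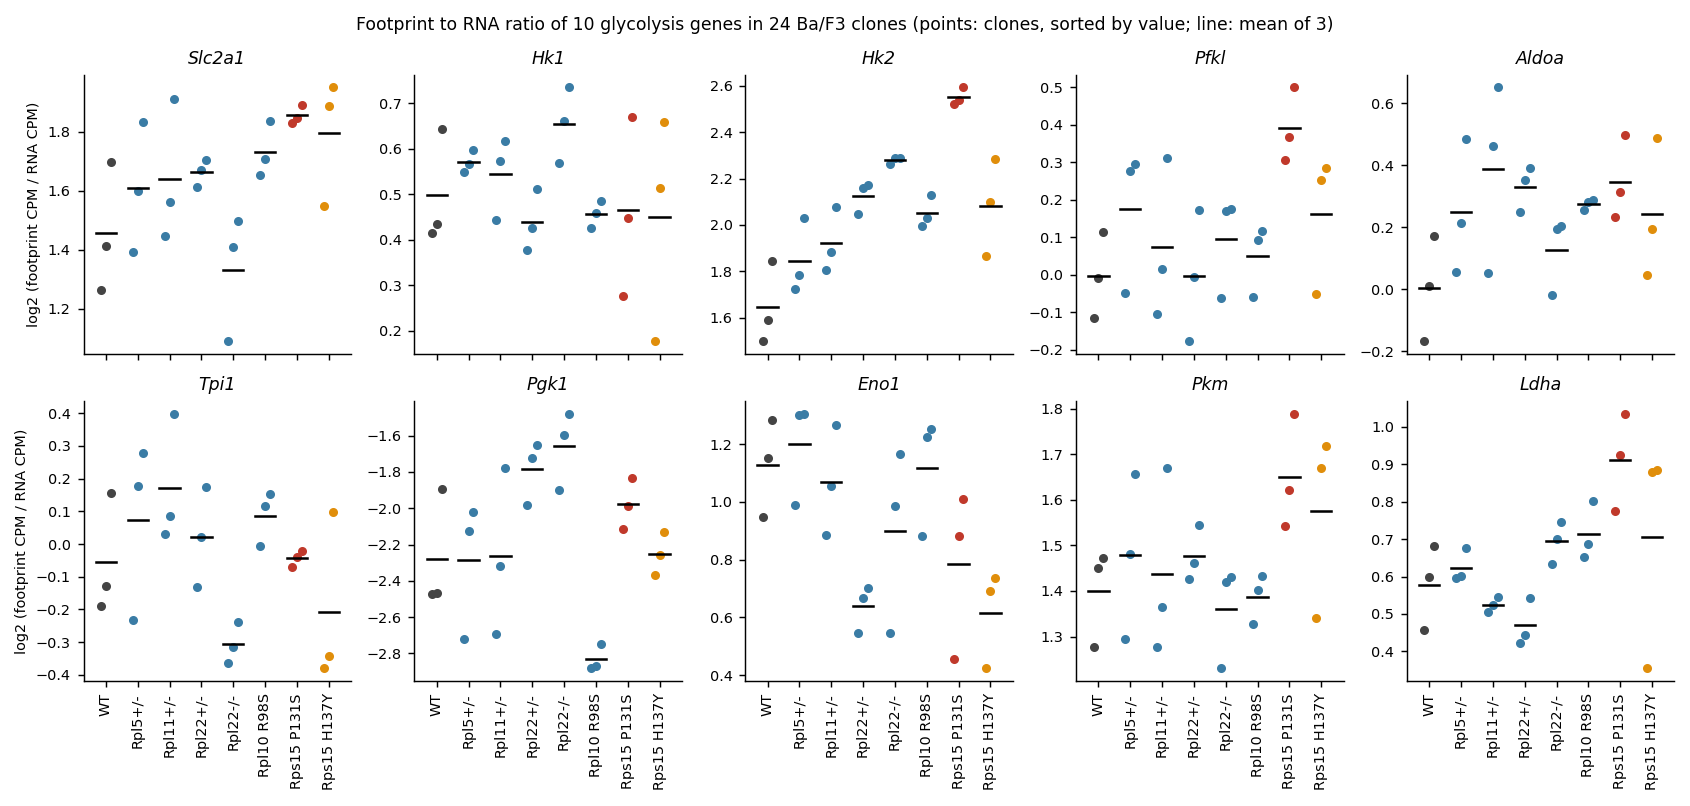
Log2 ratio of footprint to RNA CPM (vertical axes, one panel per gene, each with its own scale) for the 8 genotypes, with points for clones and a line for the mean of 3 clones. The Hk2 ratio is lowest in WT at 1.65 and highest in P131S at 2.55, with the 3 P131S clones close together.

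Hk1, the widely expressed hexokinase, was not called at any level. Its RNA was 279 ± 20.0 CPM in WT, with 268 (clone 24), 242 (clone 63) and 170 CPM (clone 20) in P131S and 207 (clone 16), 340 (clone 6) and 218 CPM (clone 2) in H137Y. Clone 6 lay above every WT clone and clones 16 and 2 below. Without clone 6 the H137Y change was -0.39 (edgeR adjusted p 0.0185), against -0.13 with it. In P131S the RNA change of Hk1 was -0.30 (adjusted p 0.1176), and -0.14 without clone 20 (adjusted p 0.4852). It was called with library totals (-0.46, edgeR adjusted p 0.01553) and without clone 24 (-0.44, edgeR adjusted p 0.03552). Scaling by library totals called Hk1 footprints in P131S (-0.50, adjusted p 0.03628, against -0.30 and 0.1842). Without clone 20 that footprint change was -0.07 (adjusted p 0.7378).

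Pfkl encodes the liver-type subunit of phosphofructokinase, which makes the committed step of the pathway. With all clones in the fit, it was the only member whose RNA was called between the Rps15 genotypes. The P131S clones had 254 (clone 24), 239 (clone 63) and 179 CPM (clone 20), and the H137Y clones 249 (clone 16), 301 (clone 6) and 269 CPM (clone 2). The groups overlapped, with clone 24 above clone 16. The level was lower in P131S than in H137Y (224 ± 39.7 against 273 ± 26.1 CPM; log2 difference -0.28, SE 0.0927, edgeR adjusted p 0.02817). It was lost without P131S clone 20 or without H137Y clone 6, with values of -0.38 to -0.15 over the 6 fits, and when only these 6 libraries were fitted (adjusted p 0.2762). Neither genotype was called against WT, where Pfkl had 260 ± 5.14 CPM. The P131S change against WT was -0.21 (edgeR adjusted p 0.06278), and -0.08 without clone 20 (adjusted p 0.3914). It was called by limma voom (adjusted p 0.04704) and with library totals (-0.37, edgeR adjusted p 0.002769). Leaving out clone 24 (-0.31, edgeR adjusted p 0.01083) or clone 63 (-0.26, edgeR adjusted p 0.04753) also gave a call. Between P131S and H137Y, other members were called in RNA in some fits without 1 clone. Without H137Y clone 6 these were Tpi1 (0.28, edgeR adjusted p 0.008209) and Ldha (0.25, edgeR adjusted p 0.02059). Ldha was called without P131S clone 20 (0.23, edgeR adjusted p 0.04644) and Pgk1 without P131S clone 24 (-0.46, edgeR adjusted p 0.0185).

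Aldoa, which splits the 6-carbon sugar, and Tpi1, which interconverts the products, were not called. Aldoa RNA was 2418 to 2565 CPM in WT, 2345 (clone 24), 2225 (clone 63) and 1428 CPM (clone 20) in P131S, and 1817 (clone 16), 2395 (clone 6) and 1779 CPM (clone 2) in H137Y. All 6 Rps15 clones lay below WT, with a log2 change of -0.31 in each genotype. Without P131S clone 20 the P131S change of Aldoa was -0.12 (edgeR adjusted p 0.3493). That change was called by DESeq2 (adjusted p 0.04949), by limma voom (adjusted p 0.04246) and with library totals (-0.47, edgeR adjusted p 0.007017). It was also called without clone 24 (-0.44, edgeR adjusted p 0.01509) and without clone 63 (-0.39, edgeR adjusted p 0.04017). Without H137Y clone 6 the H137Y change of Aldoa was -0.46 (edgeR adjusted p 0.01077), and with library totals it was -0.44 (adjusted p 0.01115). Tpi1 RNA was 1218 to 1302 CPM in WT, within the range of 1147 to 1434 CPM in P131S and 1063 to 1463 CPM in H137Y. Without clone 6 the H137Y change of Tpi1 was -0.21 (edgeR adjusted p 0.02671), against -0.05 with it.

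Pgk1 encodes phosphoglycerate kinase, the first step of the pathway that yields ATP. Its RNA was 1925, 1951 and 2072 CPM in WT and 1874 (clone 24), 1648 (clone 63) and 1001 CPM (clone 20) in P131S. The P131S clones were all below WT, clone 24 narrowly. RNA fell to 76.0% of WT (1508 ± 453 against 1983 ± 78.4 CPM; log2 change -0.40, SE 0.143, edgeR adjusted p 0.02846). The call was lost without P131S clone 20 (-0.18), WT clone 3 or WT clone 2, without a filter on low counts (adjusted p 0.06207) and when only the compared libraries were fitted (adjusted p 0.1921). H137Y had 1692, 2046 and 1742 CPM (clones 16, 6 and 2) and was not called.

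Footprints on Pgk1 could not be read apart from a copy of the gene. The retrogene Pgk1-rs7 had a mean of 68729 footprint counts per library and Pgk1 itself 21360, while in RNA the copy had 28.0 and Pgk1 50199. The share of Pgk1 footprints listed under copies was between 0.0619% and 93.4% over the 24 libraries, with genotype means of 2.04% in Rpl22+/-, 41.1% in Rpl5+/-, 46.9% in Rpl22-/-, 58.3% in Rpl11+/-, 77.3% in H137Y, 78.7% in WT, 84.8% in P131S and 91.6% in Rpl10 R98S. Counted alone, Pgk1 footprints changed by 0.50 in Rpl22+/- and -0.70 in Rpl10 R98S, neither called (edgeR adjusted p 0.344 and 0.1399). With the copies added the Rpl22+/- value was -2.07 (adjusted p 0.06126), so its sign depended on the copy. No Pgk1 footprint or efficiency value is read as a result.

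**Figure D4:**
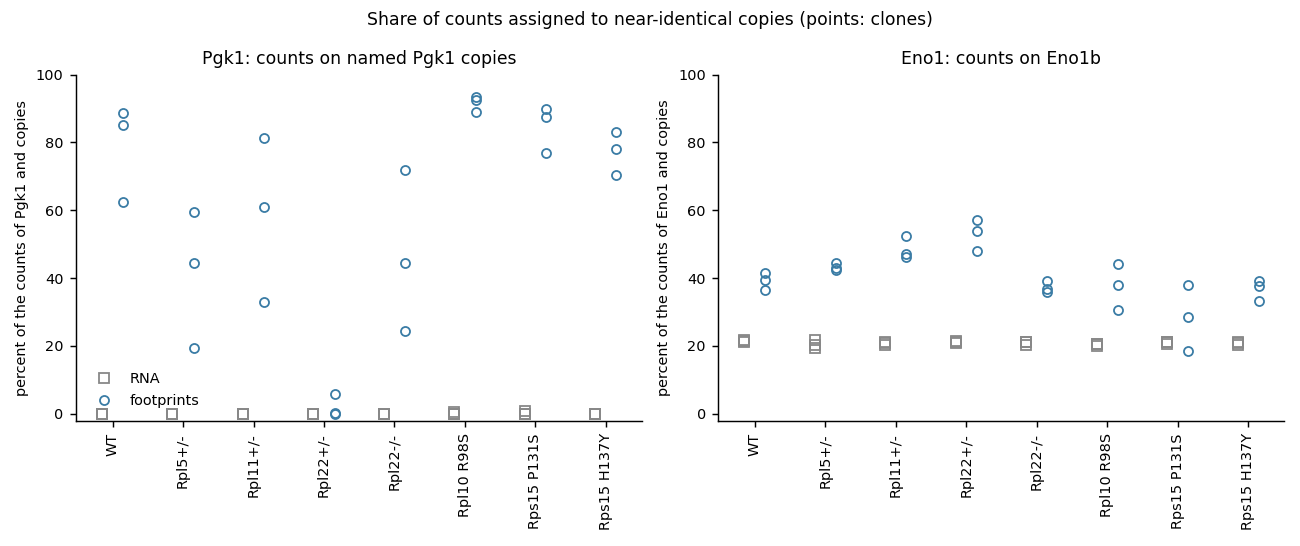
Share of counts listed under copies of the gene, in percent, for Pgk1 and Eno1 in RNA and footprint libraries of the 8 genotypes, with points for clones. In footprints the Pgk1 share runs from 0.0619% to 93.4%, and the Eno1b share of Eno1 and Eno1b from 18.5% to 57.1%, while in RNA the first stays at or below 0.710% and the second within 19.3% to 21.8%.

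Eno1, the enolase of most tissues, was the member whose RNA rose in the Rps15 genotypes. The WT clones had 1639, 1568 and 1601 CPM, the P131S clones 2027 (clone 24), 2043 (clone 63) and 1611 CPM (clone 20), and the H137Y clones 1787 (clone 16), 2265 (clone 6) and 1862 CPM (clone 2). H137Y lay above WT in every clone, and P131S clone 20 fell within the WT clones. RNA was 123% of WT in H137Y (1972 ± 257 against 1603 ± 35.2 CPM; log2 change 0.30, SE 0.0833, edgeR adjusted p 0.006597) and 118% in P131S (1894 ± 245 CPM; 0.24, SE 0.0833, adjusted p 0.02178). The H137Y call was lost without clone 6 (0.19, adjusted p 0.05767), and the P131S call without P131S clone 24 or 63 or WT clone 2 or 3. Scaling by library totals ended both (0.17 with adjusted p 0.09161, and 0.08 with 0.4203).

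The near copy Eno1b held 19.3% to 21.8% of the counts of both genes in RNA and 18.5% to 57.1% in footprints, so the 2 genes may share reads and Eno1 alone is uncertain in footprints. Counted alone, Eno1 efficiency had log2 changes of -0.36 in P131S and -0.54 in H137Y, not called (edgeR adjusted p 0.3812 and 0.1154). With the counts of copies summed, the log2 ratio was 1.37 to 1.58 in WT, 0.802 to 1.03 in P131S and 0.813 to 1.03 in H137Y, with no overlap. That efficiency was lower in P131S (-0.59, SE 0.157, edgeR adjusted p 0.02785) and in H137Y (-0.58, adjusted p 0.034). The sum of the 2 genes was higher in RNA in both (0.23, adjusted p 0.02451, and 0.29, adjusted p 0.007724), while its footprint changes of -0.34 and -0.28 were not called.

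Pkm and Ldha close the pathway, Pkm with pyruvate kinase and Ldha with the lactate dehydrogenase subunit that favours lactate. Pkm was not called at any level, and its RNA was 2650 ± 64.6 CPM in WT. The RNA change of Pkm was -0.006 in P131S, and 0.15 without clone 20 (edgeR adjusted p 0.2514). In H137Y it was 0.08, and -0.10 without clone 6 (edgeR adjusted p 0.4885). Ldha RNA was 2218 to 2255 CPM in WT, 2737 (clone 24), 2613 (clone 63) and 2122 CPM (clone 20) in P131S, and 2023 (clone 16), 2647 (clone 6) and 2175 CPM (clone 2) in H137Y, with no call in either genotype. Without clone 20 the P131S change of Ldha RNA was 0.25 (edgeR adjusted p 0.01464), against 0.16 with it.

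Footprints on Ldha rose in P131S. The WT clones had 3554, 3413 and 3065 CPM and the P131S clones 4685 (clone 24), 5353 (clone 63) and 4031 CPM (clone 20), all above WT. The level was 140% of WT (4689 ± 661 against 3344 ± 251 CPM; log2 change 0.49, SE 0.104, edgeR adjusted p 0.002887). It kept its call in 6 of 6 fits that left out 1 clone (0.41 to 0.58), and missed the threshold with library totals (0.29, adjusted p 0.05255) and when only the compared libraries were fitted (adjusted p 0.05179). In H137Y the clones had 3737 (clone 16), 3388 (clone 6) and 4001 CPM (clone 2), overlapping WT, and were not called. Directly compared, Ldha footprints in P131S differed from H137Y by 0.34 (edgeR adjusted p 0.06949, DESeq2 0.02327). The efficiency of Ldha had a change of 0.31 in P131S that was not called (adjusted p 0.2417).

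**Figure D5:**
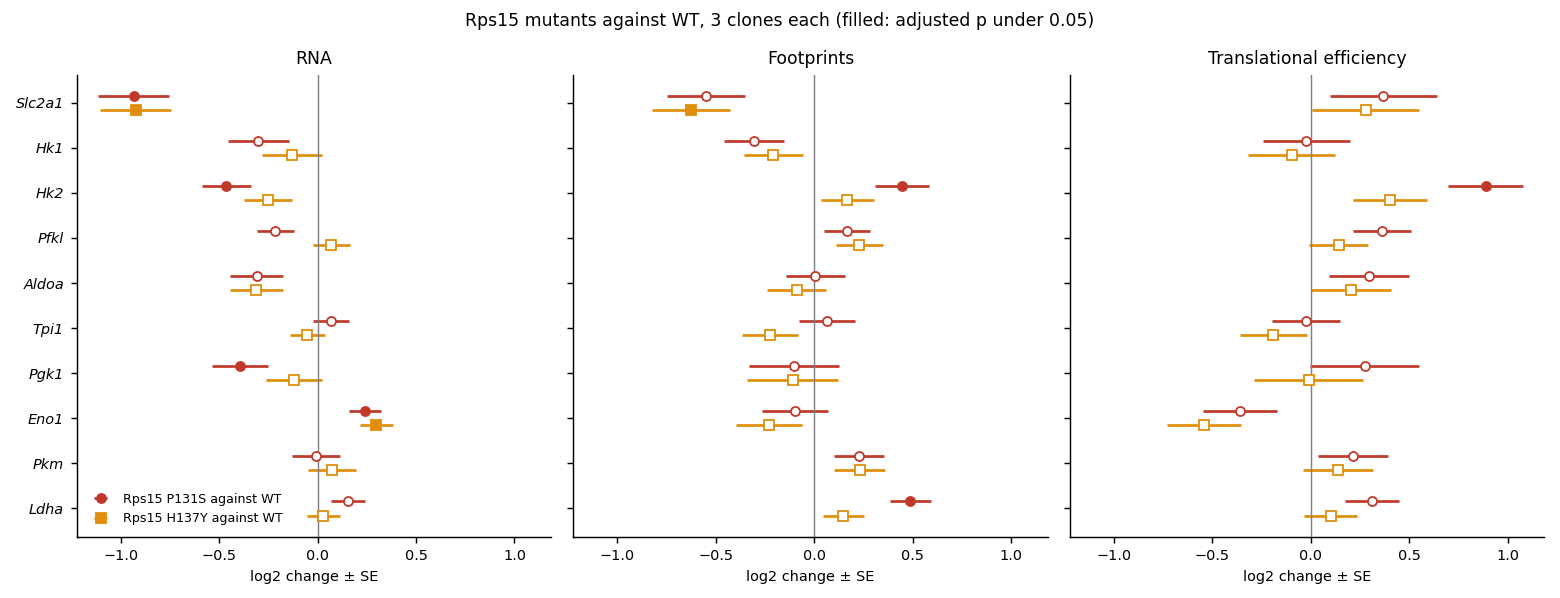
Log2 change against WT (horizontal axis) of the 10 members in RNA, footprints and efficiency for P131S and H137Y, with bars for the SE and filled points for edgeR adjusted p under 0.05. In P131S, Hk2 is at -0.46 in RNA, 0.45 in footprints and 0.89 in efficiency, and Slc2a1 is near -0.9 in the RNA of both genotypes.

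Other genes of the pathway, a list of 19 isoenzymes and steps outside the 10 members, moved in both directions in the Rps15 genotypes. Of 12 tested in RNA, 2 rose and 4 fell in P131S, and 3 rose and 5 fell in H137Y, where 47% and 41% of all genes were called. The number that rose in H137Y was 1 without WT clone 2, with library totals and when only the compared libraries were fitted. Hk3, the hexokinase typical of myeloid cells, fell from 283 ± 33.8 CPM in WT to 38.9 ± 33.1 CPM in P131S (log2 change -2.86, SE 0.606, edgeR adjusted p 0.00109) and to 76.7 ± 72.2 CPM in H137Y (-1.88, adjusted p 0.01588). The H137Y call of Hk3 was lost without H137Y clone 16 or clone 2 and when only the compared libraries were fitted. Slc2a3, the transporter GLUT3, fell from 671 ± 158 CPM to 293 ± 143 CPM in P131S (-1.20, adjusted p 0.008381) and to 294 ± 100 CPM in H137Y (-1.19, adjusted p 0.01011). The others that fell, named after their values were seen, were the phosphofructokinase genes Pfkp (-1.09 in P131S, -0.80 in H137Y) and Pfkm (-0.78, -0.63) in both and Pgam1 in H137Y (-0.44). Those that rose were Eno3 (0.49 in P131S, 0.71 in H137Y), the lactate carrier Slc16a1 in P131S (0.35), and Bpgm (0.23) and Eno1b (0.24) in H137Y. The calls of Slc16a1, Bpgm and Eno1b were lost with library totals and when only the compared libraries were fitted, as was that of Slc2a3 in P131S in the second of these. Leaving out P131S clone 20 ended the Slc16a1 call, leaving out WT clone 1 or 2 that of Bpgm, and leaving out H137Y clone 6 or WT clone 2 or 3 that of Eno1b. The median change of the 12 was 0.03 in P131S and -0.14 in H137Y.

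Of 18 further HIF target genes outside glycolysis, 17 were in the table and 15 were tested in RNA, and 11 fell in P131S and 10 in H137Y with none higher. The median log2 change was -0.77 in P131S and -0.60 in H137Y, beside all-gene medians of -0.01 and 0.01. Ndrg1 fell from 281 ± 53.1 to 44.8 ± 44.0 CPM in P131S (-2.65, edgeR adjusted p 0.008909; not called when only the compared libraries were fitted), and Ddit4, an inhibitor of mTOR signalling, from 70.2 ± 7.70 to 15.7 ± 4.88 CPM (-2.16, adjusted p 1.286e-07). In H137Y Ddit4 fell to 19.4 ± 3.35 CPM (-1.85, adjusted p 5.362e-07) and Ankrd37 from 31.8 ± 3.92 to 10.99 ± 1.94 CPM (-1.53, adjusted p 0.004254). Lower Ddit4 RNA was not limited to the Rps15 genotypes, and every other mutant was also called against the same WT clones. Rpl22-/- had -1.48 (edgeR adjusted p 9.824e-05), Rpl10 R98S -1.13 (0.000631) and Rpl22+/- -1.11 (0.001532). Rpl11+/- had -1.08 (0.001223) and Rpl5+/- -0.82 (0.03551). The Rpl5+/- call was lost in 6 of 6 fits that left out 1 clone. In footprints 6 of 16 HIF targets fell in P131S and 3 in H137Y, and 3 and 6 when only the compared libraries were fitted. Of all genes, 47% and 41% were called in RNA and 16.7% and 11.7% in footprints. The P131S count in RNA was 9 to 13 with each clone left out, 14 with library totals, and 6 when only the compared libraries were fitted.

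Of 24 regulators of the pathway, 18 were tested in RNA, with 3 higher and 5 lower in P131S and 2 higher and 2 lower in H137Y, where 47% and 41% of all genes were called. With library totals the P131S counts were 1 higher and 8 lower, and without WT clone 3 the number higher was 1. Myc, the transcription factor gene, had 380 ± 4.17 CPM in WT and fell in 4 genotypes. It had 194 ± 69.2 CPM in P131S (-0.97, edgeR adjusted p 0.0002632), 231 ± 36.9 CPM in Rpl22-/- (-0.71, adjusted p 0.02371), 236 ± 21.4 CPM in Rpl22+/- (-0.69, adjusted p 0.03709) and 272 ± 26.4 CPM in H137Y (-0.48, adjusted p 0.03887). With each of 6 clones left out in turn, the P131S call of Myc was never lost, while that in Rpl22+/- was lost in 6 fits, that in Rpl22-/- in 5 (all but the fit without Rpl22-/- clone 649) and that in H137Y in 5 (all but the fit without H137Y clone 6). A fit without the filter on low counts also ended these 3. Its footprints were not called in these genotypes. Pdk1, the kinase that switches off pyruvate dehydrogenase, fell in P131S RNA (-0.76, adjusted p 0.008183, not called when only the compared libraries were fitted) and footprints (-1.11, adjusted p 0.0005499).

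The pentose phosphate pathway branches from glycolysis at glucose 6-phosphate. Of its 10 genes, 6 rose in P131S RNA, and 5 rose and 1 fell in H137Y, where 47% and 41% of all genes were called. G6pdx, its first enzyme, rose from 83.8 ± 2.12 CPM to 118 ± 7.95 CPM in P131S (0.49, edgeR adjusted p 0.0003449) and 130 ± 26.1 CPM in H137Y (0.63, adjusted p 3.389e-05). Pgd rose from 127 ± 5.27 CPM to 187 ± 17.3 CPM (0.57, adjusted p 0.000263) and 187 ± 42.5 CPM (0.56, adjusted p 0.0003532). In footprints 7 rose and 1 fell in P131S, and 3 rose in H137Y, where 16.7% and 11.7% of all genes were called. With library totals the P131S counts were 3 higher in RNA instead of 6, and 2 higher in footprints instead of 7. When only the compared libraries were fitted, 3 rose in H137Y RNA instead of 5.

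Pyruvate entry and the citric acid cycle, were covered by a list of 23 genes. Against WT, 9 rose and 1 fell in P131S RNA, and 2 rose and 6 fell in H137Y, where 47% and 41% of all genes were called. Compared directly, 14 were higher and 1 lower in P131S than in H137Y, against 25.2% of all genes called in either direction, among them Sdhb (135 ± 13.4 against 90.9 ± 1.28 CPM, 0.57, edgeR adjusted p 1.135e-05) and Fh1 (125 ± 10.2 against 84.4 ± 1.45 CPM, 0.56, adjusted p 2.146e-05). The number higher was 2 when only the 6 compared libraries were fitted. The mitochondrial pyruvate carrier genes Mpc1 and Mpc2 rose in both genotypes. Mpc1 rose by 0.65 in P131S (edgeR adjusted p 1.372e-06) and by 0.28 in H137Y (0.006089). Mpc2 rose by 0.36 in P131S (edgeR adjusted p 0.01278) and by 0.71 in H137Y (5.368e-05). The smaller change of each gene, named after its value was seen, lost its call with library totals. That of Mpc2 in P131S was also lost without P131S clone 20. With library totals the number higher in P131S was 5, and the number lower in H137Y was 11.

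Over the 8 genotype means, the members did not all follow one pattern. The RNA level of a member correlated with the mean of the other 9 at r = 0.918 for Aldoa, 0.879 for Pgk1, 0.816 for Hk1 and 0.797 for Slc2a1, but at 0.0159 for Hk2, -0.261 for Ldha and -0.643 for Eno1. These are descriptions over 8 points that share libraries and scaling. Of 8698 genes outside the lists, the 4 whose genotype means were most like the average of the members were Dnajc13 (r = 0.992), Fnbp1 (0.988), Zfp395 (0.987) and Zranb3 (0.986).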

How the data were processed

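The authors deposited estimated counts per Ensembl gene for 48 libraries, not normalized. Per the submitters' processing notes, STAR 2.6.1d, Salmon 1.4.0, DESeq2 1.30 and GRCm38 were used; the feature counted, the strand setting and how multi-mapped reads were treated are not given in the sources used here. Of the values, 92.72% in RNA and 84.35% in footprints lay within 0.0001 of a whole number, and all were rounded.

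Genes were tested with edgeR 4.0.16 (R 4.3.3, quasi-likelihood, robust, TMM within an assay). The filter asked for 10 counts in the smallest group and 15 in total. One fit per assay held all 8 genotypes, and efficiency was fitted over 48 libraries in 16 groups. The test was tested on simulated data. Both libraries of a clone came from 1 divided lysate, per the labels' protocols; their deviations from the genotype mean correlated at 0.0879 to 0.398 (24 pairs, 12074 genes), against -0.283 to -0.0210 for different clones (48 pairs).

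Alternatives were DESeq2 1.42.0, limma voom (limma 3.58.1), RLE factors, no filter, only the compared groups, a clone block, Eno1b counts added and each clone left out. Scaling by library totals and adding all named copies were chosen after seeing the data. The members and gene lists were chosen with earlier results of these data known. Named beyond the members were, per list and comparison with more than 2 calls, the 2 largest RNA changes whose clones did not overlap, and for likeness the 5 genes with the highest correlation, of which 1 is not reported here. Symbols, promoters and coordinates came from the table and RefSeq (GRCm38.p6). Input was read with the R package data.table (version 1.17.8), and figures drawn with matplotlib 3.10.9 in Python 3.11.15.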

Additional observations from a re-analysis of the deposited data

Results flagged for a closer look

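Pfkl RNA differed between the Rps15 mutations when they were compared directly. The log2 difference of P131S against H137Y was -0.28 (SE 0.0927, edgeR adjusted p 0.02817), with lower levels in P131S. It was lost without P131S clone 20 or H137Y clone 6, and its cause was not tested.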

How the results depend on the processing

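The numbers of members called were recomputed under each alternative for 24 combinations of level and comparison, and no called change reversed its direction in any of them. RLE factors and limma voom left all 24 within 1.5 times. With only the compared groups in the fit, RNA calls were 3 in Rpl5+/-, 1 in Rpl11+/-, 1 in Rpl22+/-, 6 in Rpl10 R98S, 2 in P131S and 0 between P131S and H137Y, and footprint calls were 1 in Rpl10 R98S and 0 in P131S. Over all genes, RNA calls in that fit were 1868 of 11814 in Rpl5+/-, 855 of 12008 in Rpl11+/- and 1248 of 11934 in Rpl22+/-. They were 4216 of 11917 in Rpl10 R98S, 5180 of 11917 in P131S and 378 of 12069 between P131S and H137Y. Footprint calls over all genes were 689 of 14124 in Rpl10 R98S and 2208 of 14076 in P131S. Scaling by library totals gave 1 RNA call in Rpl22+/-. It also changed which members were called in P131S. In P131S footprints the calls of Hk2 and Ldha, both higher, were lost. Slc2a1 (-0.74, edgeR adjusted p 0.01547) and Hk1 (-0.50, edgeR adjusted p 0.03628) were called lower there instead. In P131S RNA the higher call of Eno1 was lost, and Aldoa, Hk1 and Pfkl were called lower. The median change of all genes under library totals stood at -0.18 in P131S RNA, -0.11 in H137Y RNA, -0.24 in P131S footprints and -0.12 between P131S and H137Y footprints. Without the low-count filter, RNA calls were 0 in Rpl22-/- and 0 in Rpl10 R98S, and footprint calls were 0 in H137Y. DESeq2 gave 1 footprint call in Rpl10 R98S and 1 between P131S and H137Y. With the clone as a replicate block, efficiency calls were 1 in Rpl22-/-, 1 in H137Y and 1 between P131S and H137Y, all Hk2; the block changed no other call of a member. With named copies or Eno1b added, efficiency calls were 2 in P131S and 1 in H137Y. With each clone left out in turn, RNA calls were 0 to 0 in Rpl22-/-, 0 to 1 in Rpl10 R98S, 2 to 6 in P131S, 2 to 5 in H137Y and 1 to 2 between P131S and H137Y. Footprint calls were 1 to 3 in P131S, 0 to 0 in H137Y and 0 to 1 between P131S and H137Y. The cause of these changes was not tested. Every member had at least 1414 counts in every library (the lowest was Hk2 in RNA).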
